A study of Mus musculus with 19 samples.

Results

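The genes described here are 46 genes of the cell cycle and of DNA replication, listed by name and followed in livers of male mice on 2 diets with and without oat beta-glucan. They are 46 of the 35498 genes in the deposited quantifications. Of them, 17 act around the start of replication (G1/S) and 29 in G2 and mitosis (G2/M), and 42 had enough reads to be tested (16 of the 17 G1/S members and 26 of the 29 G2/M members). RNA was sequenced from whole liver at 24 weeks, as labelled, in 4 treatment groups of strain C57BL/6J (written C57Bl/J6 in the labels): WSD+beta-Glucan (n = 4 libraries), WSD (n = 5), CTRL+beta-Glucan (n = 5) and CTRL (n = 5). Diet, gut microbiota and fatty liver disease are the subjects named in the series title. WSD is not spelled out there, no dose is given for beta-glucan, a soluble cereal fibre, and nothing says that each library came from another mouse. The p-values therefore cover only the spread between libraries of a group, part of which may be technical.

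A cell that leaves quiescence first makes D-type cyclins, whose kinases inactivate the retinoblastoma protein and free E2F transcription factors. E2F turns on the genes of replication, among them the MCM helicase, the clamp PCNA and the enzymes of nucleotide supply. Genes of G2 and mitosis follow later, under the transcription factor FOXM1 and B-Myb (Mybl2), and encode cyclin B with its kinase CDK1, the kinetochore, the spindle and the machinery of cytokinesis. In quiescent cells the DREAM complex keeps many of these genes silent. It reaches G2/M genes through a promoter element called CHR and G1/S genes through E2F sites, while CCAAT boxes bind the activator NF-Y. Most cells of the adult liver are quiescent, and dividing cells can be hepatocytes as well as immune and other non-parenchymal cells.

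Promoter sequences of 6 members are shown first, because the G2/M and G1/S members differ in how many hold the elements named above. The sequences are from RefSeq (build GRCm38.p6), 5′ to 3′ on the strand of the gene, from 150 bases before to 30 bases after the transcription start. Capitals mark CHR elements, CCAAT boxes and E2F sites on either strand. Cdc20, Mki67 and Cdk1 are G2/M members, and Mcm5, Mcm6 and Mcm7 are G1/S members. The stretches are chr4:118437314-118437493 (minus strand) for Cdc20, chr7:135716350-135716529 (minus) for Mki67, chr10:69352883-69353062 (minus) for Cdk1, chr8:75109359-75109538 (plus) for Mcm5, chr1:128359676-128359855 (minus) for Mcm6 and chr5:138171854-138172033 (minus) for Mcm7.
Cdc20: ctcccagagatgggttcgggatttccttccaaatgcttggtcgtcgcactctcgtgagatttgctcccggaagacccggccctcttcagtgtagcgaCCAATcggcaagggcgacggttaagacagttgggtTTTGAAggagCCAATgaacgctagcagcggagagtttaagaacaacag
Mki67: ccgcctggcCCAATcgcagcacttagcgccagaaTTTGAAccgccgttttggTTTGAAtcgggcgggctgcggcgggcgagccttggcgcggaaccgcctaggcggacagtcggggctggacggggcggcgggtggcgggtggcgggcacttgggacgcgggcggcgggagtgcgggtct
Cdk1: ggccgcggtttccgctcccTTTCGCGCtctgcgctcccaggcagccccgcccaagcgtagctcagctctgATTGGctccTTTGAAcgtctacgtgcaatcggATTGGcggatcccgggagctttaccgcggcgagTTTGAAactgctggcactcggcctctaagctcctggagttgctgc
Mcm5: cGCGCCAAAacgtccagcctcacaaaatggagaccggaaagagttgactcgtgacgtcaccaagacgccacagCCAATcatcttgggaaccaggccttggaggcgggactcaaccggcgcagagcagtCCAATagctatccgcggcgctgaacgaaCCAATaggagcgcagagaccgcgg
Mcm6: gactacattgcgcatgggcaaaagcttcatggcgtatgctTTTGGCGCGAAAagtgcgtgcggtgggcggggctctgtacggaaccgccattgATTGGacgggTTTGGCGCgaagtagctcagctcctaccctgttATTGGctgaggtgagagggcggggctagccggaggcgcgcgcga
Mcm7: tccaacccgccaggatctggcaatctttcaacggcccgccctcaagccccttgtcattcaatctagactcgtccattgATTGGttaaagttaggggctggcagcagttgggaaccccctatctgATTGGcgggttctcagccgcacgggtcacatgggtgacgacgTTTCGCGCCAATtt

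The CHR element of Cdc20 lies 18 bases before the start. Mki67 has CHR elements 116 and 98 bases before the start, and Cdk1 has them 71 and 15 bases before it, beside the E2F site of Cdk1 at 131 bases before. The stretches of Mcm5, Mcm6 and Mcm7 hold E2F sites and CCAAT boxes and no CHR element, although Mcm7 has a CHR match further upstream, outside the stretch printed. In Mcm7 the E2F site overlaps a CCAAT box. Another RefSeq start of Mcm7, not printed, has 1 CCAAT box and no E2F or CHR match in its stretch.

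Over the whole table, 38 of the 46 members had a RefSeq window of 300 bases (250 before to 50 after the start), 24 G2/M and 14 G1/S. Ccnd1, Ccne2, Mcm4, Ccna2, Foxm1, Aurkb, Kif20a and Tpx2 were not matched. The letters searched on both strands were TTTGAA or TTCGAA for CHR, CCAAT for the CCAAT box, and TTTGGCGC, TTTCCCGC, TTTCGCGC or TTTGCCGC for E2F. A CHR element was present in 19 of 24 G2/M members (79.2%) and 3 of 14 G1/S members (21.4%: E2f2, Mcm2 and Mcm7), against 21.7% of all 27025 genes with a window. E2F letters were present in 1 of 24 G2/M members (4.17%, Cdk1) and 6 of 14 G1/S members (42.9%: Mcm3, Mcm5, Mcm6, Mcm7, E2f2 and Uhrf1), against 2.61% of all genes. CCAAT was present in 21 of 24 G2/M members (87.5%) and 9 of 14 G1/S members (64.3%), against 41.1% of all genes. A gene with more than 1 start was counted when any of its windows held the letters. In E2f2, Uhrf1 and Mcm7 not every window held E2F letters. The matches describe the letters of the window and do not show that a factor binds there.

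**Figure D1:**
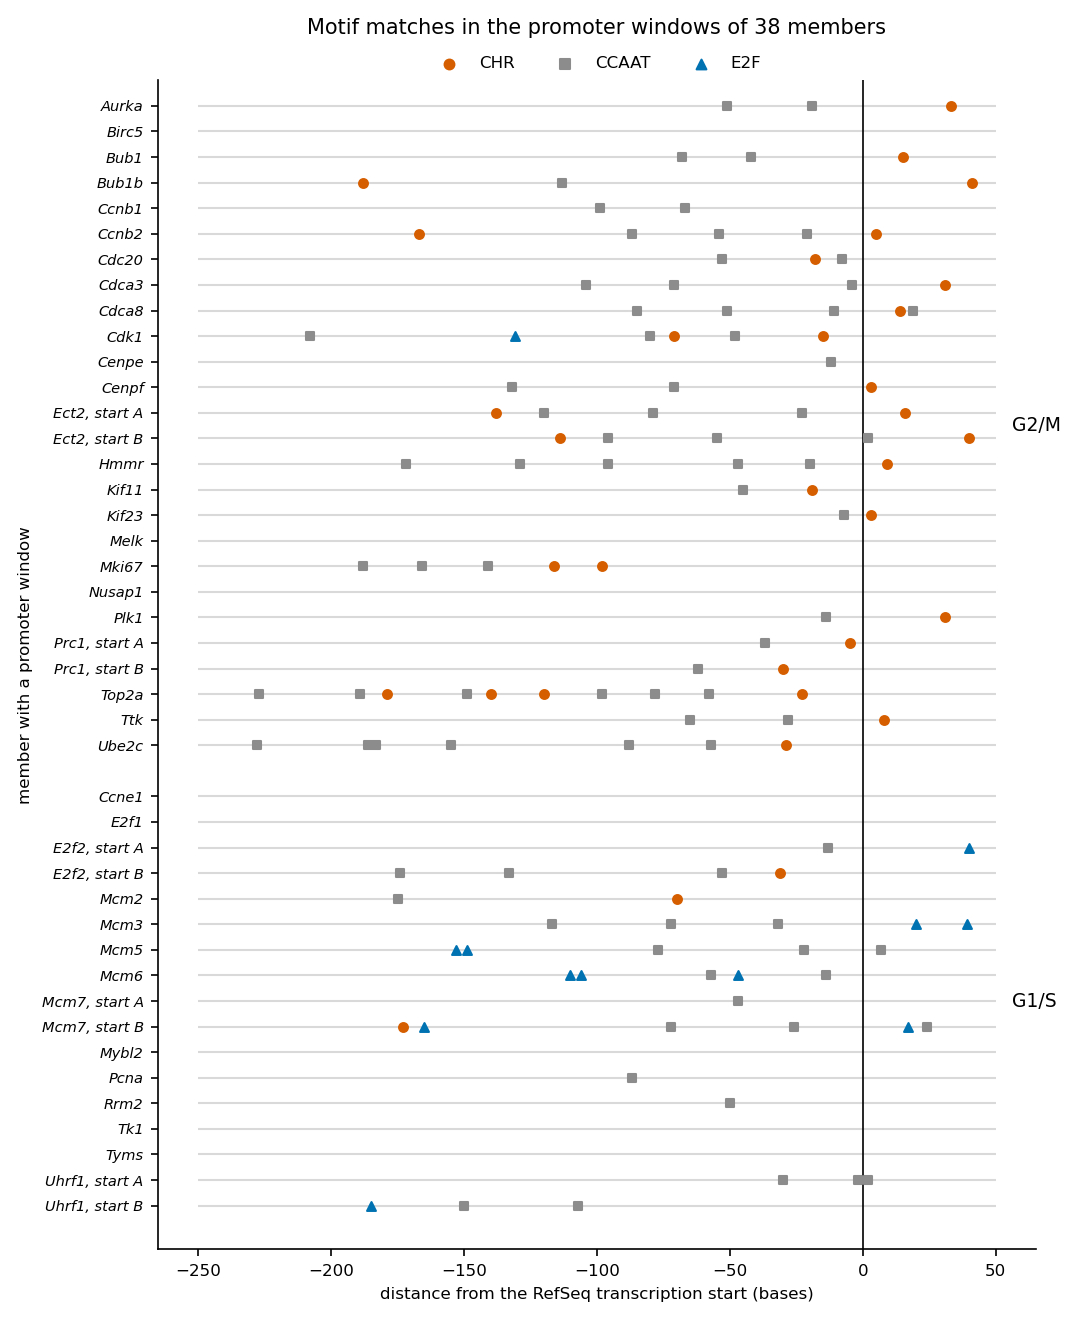
Positions of CHR (circles), CCAAT (squares) and E2F (triangles) matches, in bases from the RefSeq transcription start, in 38 members; rows named start A and start B are different starts of 1 gene. CHR matches lie in 19 of 24 G2/M members and E2F matches in 6 of 14 G1/S members.

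Depth was 17253823 to 23450232 estimated reads per library (median 19481377). Levels are given as CPM (read counts scaled to a common library size) after TMM scaling, and fold changes on the log2 scale with their SE from edgeR's quasi-likelihood test. A gene was called when its p-value, adjusted by Benjamini and Hochberg over all 13594 genes tested, was under 0.05. TMM factors were higher in both WSD groups (1.02 to 1.17 in WSD+beta-Glucan and 1.14 to 1.26 in WSD) than in the other groups (0.776 to 0.955 in CTRL+beta-Glucan and 0.829 to 0.896 in CTRL). Scaling by library totals alone moved the median log2 fold change of all genes in WSD against CTRL to 0.43, against −0.04 with TMM, and the share of higher genes among the calls to 92.7%, against 48.9%. The 3 libraries with the title numbers 37, 39 and 40 (replicate 1 of WSD+beta-Glucan, replicates 1 and 2 of CTRL+beta-Glucan) lay at 18.2, 51.8 and 18.2 on the second principal component of all genes, and the other 16 between −21.6 and 10.3. Without them the calls of members numbered 36 of 42 in WSD against CTRL and 31 in WSD+beta-Glucan against CTRL+beta-Glucan, against 35 and 34 with all libraries.

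The cell cycle genes were higher in WSD livers than in CTRL livers, and on the log2 scale the G2/M genes more than the G1/S genes. Of the 42 members tested, 35 were called higher and 0 lower, against 26% of all genes called higher and 27.1% called lower. Every WSD library lay above every CTRL library in 33 members, against 20% of all genes. The median log2 fold change was 2.52 over the 26 G2/M members and 0.66 over the 16 G1/S members, beside −0.04 over all genes. Of the G2/M members 25 were called, each at least 2-fold higher. Of the G1/S members 10 were called, 7 of them at least 2-fold higher (Uhrf1, Ccnd1, E2f2, Mcm5, Mcm3, Mcm6 and Mcm2) and 3 less than that (E2f1, Mcm4 and Pcna). The read filter could be met by the libraries of a single group. Ccnb1, Cenpe and Tpx2, among others, averaged 0.0990, 0.112 and 0.243 CPM in CTRL and 0.0745, 0.0732 and 0.127 CPM in CTRL+beta-Glucan. They passed the filter through the WSD groups, which favours members high there in the counts and medians of both WSD comparisons. The classes were split by textbook phase, and their medians are a description with no test. In bulk samples, fewer cells of a type and less RNA per cell cannot be told apart.

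**Figure D2:**
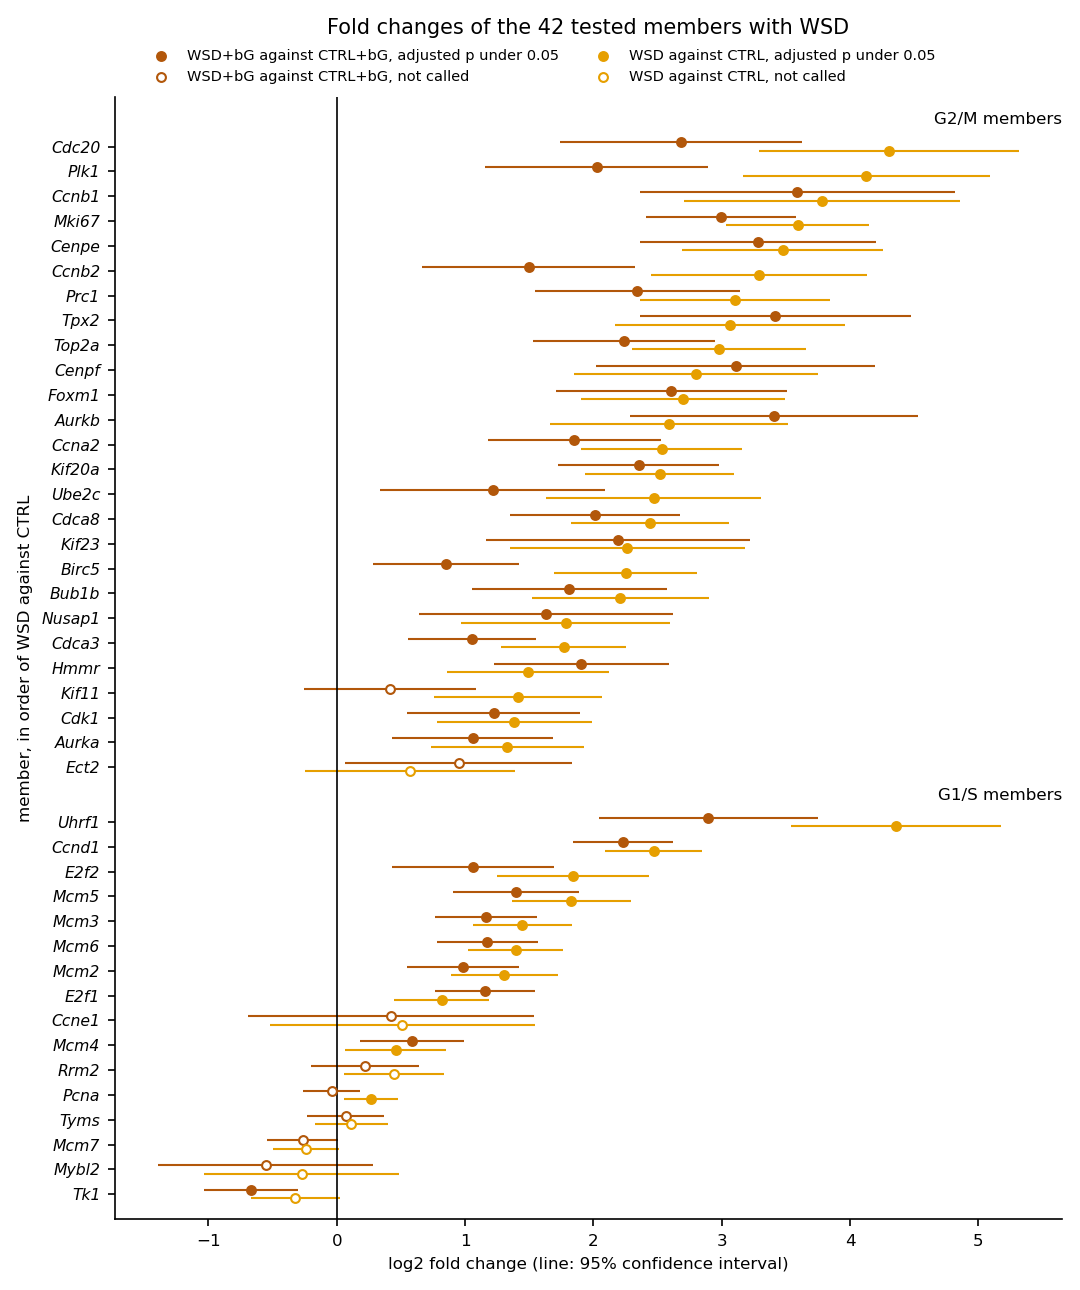
Log2 fold change with its 95% confidence interval of the 42 tested members in both WSD comparisons (WSD+beta-Glucan against CTRL+beta-Glucan, then WSD against CTRL); filled points have an adjusted p under 0.05 (edgeR). The G2/M members lie to the right of 0 in both comparisons, whereas Tk1, Mybl2 and Mcm7 lie to its left; with library totals as scaling these 3 lie to the right in WSD against CTRL.

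Among the mitotic cyclins, CDK1 and their regulators, all 7 tested members were called higher in WSD against CTRL, with a median log2 fold change of 2.70. Cdk1, the kinase that drives entry into mitosis, had 1.54, 2.34, 1.38 and 2.02 CPM in the WSD+beta-Glucan libraries, 4.01, 2.35, 2.21, 2.84 and 3.54 CPM in the WSD libraries, 0.866, 1.12, 1.14, 0.603 and 0.247 CPM in the CTRL+beta-Glucan libraries and 1.41, 1.46, 0.758, 1.01 and 1.08 CPM in the CTRL libraries. The WSD libraries all lay above the CTRL libraries, and the fold change was 1.38 ± 0.29 (edgeR adjusted p = 0.000504). Ccnb1, its cyclin partner, had 0.659, 0.934, 1.21 and 0.758 CPM in the WSD+beta-Glucan libraries, 1.43, 1.24, 1.08, 0.961 and 2.68 CPM in the WSD libraries, 0.216, 0, 0.0601, 0.0464 and 0.0495 CPM in the CTRL+beta-Glucan libraries and 0.0562, 0.122, 0, 0.0591 and 0.258 CPM in the CTRL libraries. The CTRL libraries held 9 reads of Ccnb1 in all, against 173 in WSD, and WSD replicate 5 was the highest library. Its fold change was 3.78 ± 0.52 (edgeR adjusted p = 5.38e-06). Plk1, a kinase that acts from mitotic entry to cytokinesis, had 1.21, 0.977, 1.34 and 1.35 CPM in the WSD+beta-Glucan libraries, 2.53, 1.49, 0.995, 1.79 and 2.72 CPM in the WSD libraries, 0.433, 0.186, 0.18, 0.232 and 0.445 CPM in the CTRL+beta-Glucan libraries and 0.169, 0.244, 0.0583, 0.0591 and 0 CPM in the CTRL libraries. No WSD library reached down to a CTRL library, although CTRL had only 9 reads of Plk1 in all, and the fold change was 4.12 ± 0.46 (edgeR adjusted p = 4.82e-07).

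Aurka, the kinase of the centrosome and spindle pole, had 1.04, 0.977, 1.51 and 1.01 CPM in the WSD+beta-Glucan libraries, 1.8, 1.36, 0.822, 1.37 and 1.46 CPM in the WSD libraries, 0.289, 0.559, 0.42, 0.649 and 0.742 CPM in the CTRL+beta-Glucan libraries and 0.337, 0.548, 0.525, 0.828 and 0.464 CPM in the CTRL libraries. WSD replicate 3 and CTRL replicate 4 met at the edge, so the groups overlapped, and the fold change of 1.33 ± 0.29 was among the lowest of the G2/M members (edgeR adjusted p = 0.000627). Ccnb2 (3.29 ± 0.40), Foxm1, the transcription factor of G2/M genes (2.70 ± 0.38), and Ccna2, the cyclin of S phase and G2 (2.53 ± 0.30), completed the group, with edgeR adjusted p of 1.54e-06, 8.14e-06 and 9.85e-07.

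The 3 members grouped as factors of mitotic exit, Cdc20, Ube2c and Cdca3, were called higher. They work with or are targets of the anaphase promoting complex, the ubiquitin ligase of mitotic exit. Cdc20, its activator, had 1.1, 1.78, 3.07 and 2.02 CPM in the WSD+beta-Glucan libraries, 3.09, 3.1, 1.51, 2.43 and 3.98 CPM in the WSD libraries, 0.794, 0.31, 0.36, 0.139 and 0.0495 CPM in the CTRL+beta-Glucan libraries and 0.169, 0.183, 0.0583, 0.177 and 0.103 CPM in the CTRL libraries. The lowest WSD library was several times above the highest CTRL library, and with a fold change of 4.30 ± 0.49 Cdc20 moved more than any other G2/M member (edgeR adjusted p = 5.3e-07). Ube2c, the conjugating enzyme of the complex, had a log2 fold change of 2.47 ± 0.40, and Cdca3, a factor of mitotic entry and a target of the complex, of 1.77 ± 0.23. Of 10 genes of the complex and its regulators, 1 was called higher (Anapc4, 0.42) and 4 lower (Anapc1, −0.37, Cdc27, −0.34, Cdc26, −0.30, and Anapc5, −0.17). Over all genes 26% were called higher and 27.1% lower. With library totals as scaling 7 of the 10 were called higher, Anapc5 among them (0.30), and 0 lower. Under that scaling 7874 of all 13594 genes were called higher and 617 lower.

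The chromosomal passenger complex, which corrects faulty chromosome attachments, was called higher in all 3 members: Aurkb, its kinase (2.59 ± 0.45), Cdca8 (borealin, 2.44 ± 0.30) and Birc5 (survivin, 2.25 ± 0.27). The reads of Birc5 were split between 2 protein-coding transcripts. Birc5-201 had 91 reads in WSD+beta-Glucan, 250 in WSD, 26 in CTRL+beta-Glucan and 8 in CTRL, whereas Birc5-202 had 31, 37, 41 and 36 reads in the same groups. Birc5-201 therefore carried 87.1% of the Birc5 reads in WSD and 18.9% in CTRL. Salmon's split between overlapping transcripts is an estimate, and no test was made at this level.

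At the kinetochore and the spindle checkpoint, the 3 tested members were called higher: the motor Cenpe (3.47 ± 0.38), the kinetochore protein Cenpf (2.80 ± 0.46) and the checkpoint protein Bub1b (2.21 ± 0.33). The checkpoint kinases Bub1 and Ttk had too few reads for a test. Bub1 had 17 reads in WSD+beta-Glucan, 42 in WSD, 3 in CTRL+beta-Glucan and 1 in CTRL. Ttk had 16, 34, 3 and 4 reads in the same groups. The kinase Melk, also not tested, had 27, 48, 3 and 2 reads, and Ccne2, the only untested G1/S member, had 16, 25, 13 and 10 reads. All 4 had their highest sum in WSD and under 50 reads there.

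Of the 8 spindle and cytokinesis members, 7 were called higher in WSD. These were Prc1, which bundles microtubules of the central spindle (3.10 ± 0.35), Tpx2, which activates Aurora A (3.07 ± 0.43), the kinesins Kif20a (2.52 ± 0.28), Kif23 (2.27 ± 0.44) and Kif11 (1.41 ± 0.31), Nusap1 (1.78 ± 0.39) and Hmmr (1.49 ± 0.30). Ect2, the exchange factor that positions the cleavage furrow, was the one G2/M member not called. It had 0.494, 0.679, 0.995 and 1.26 CPM in the WSD+beta-Glucan libraries, 0.461, 0.867, 0.822, 0.87 and 1.14 CPM in the WSD libraries, 0.216, 0.496, 0.42, 0.556 and 0.495 CPM in the CTRL+beta-Glucan libraries and 0.337, 0.183, 0.525, 0.473 and 1.24 CPM in the CTRL libraries. CTRL replicate 5 was above all WSD libraries, and the fold change of 0.57 ± 0.39 had an edgeR adjusted p of 0.231. Without that library it was 1.12 with an adjusted p of 0.0186.

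The proliferation marker Mki67, which coats mitotic chromosomes, had 3.79, 4.08, 5.06 and 4.59 CPM in the WSD+beta-Glucan libraries, 7.28, 7.51, 4.89, 7.14 and 8.74 CPM in the WSD libraries, 0.577, 0.683, 0.541, 0.649 and 0.297 CPM in the CTRL+beta-Glucan libraries and 0.675, 1.16, 0.408, 0.296 and 0.412 CPM in the CTRL libraries. The WSD libraries were all at least 4 times the highest CTRL library, with a fold change of 3.59 ± 0.27 (edgeR adjusted p = 3.3e-09). Top2a, the topoisomerase that untangles sister chromatids, had 1.87, 1.66, 3.07 and 2.23 CPM in the WSD+beta-Glucan libraries, 4.33, 2.97, 3.29, 2.93 and 3.78 CPM in the WSD libraries, 0.794, 0.496, 0.541, 0.464 and 0.0989 CPM in the CTRL+beta-Glucan libraries and 0.619, 0.548, 0.175, 0.414 and 0.412 CPM in the CTRL libraries. The groups did not overlap, and the fold change was 2.98 ± 0.33 (edgeR adjusted p = 3.75e-07). Within the WSD group, replicate 3 was the lowest library in 19 of the 26 G2/M members, and replicate 5 the highest in 12. Within the WSD+beta-Glucan group, replicate 3 was the highest in 17 and replicate 1 the lowest in 13.

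**Figure D3:**
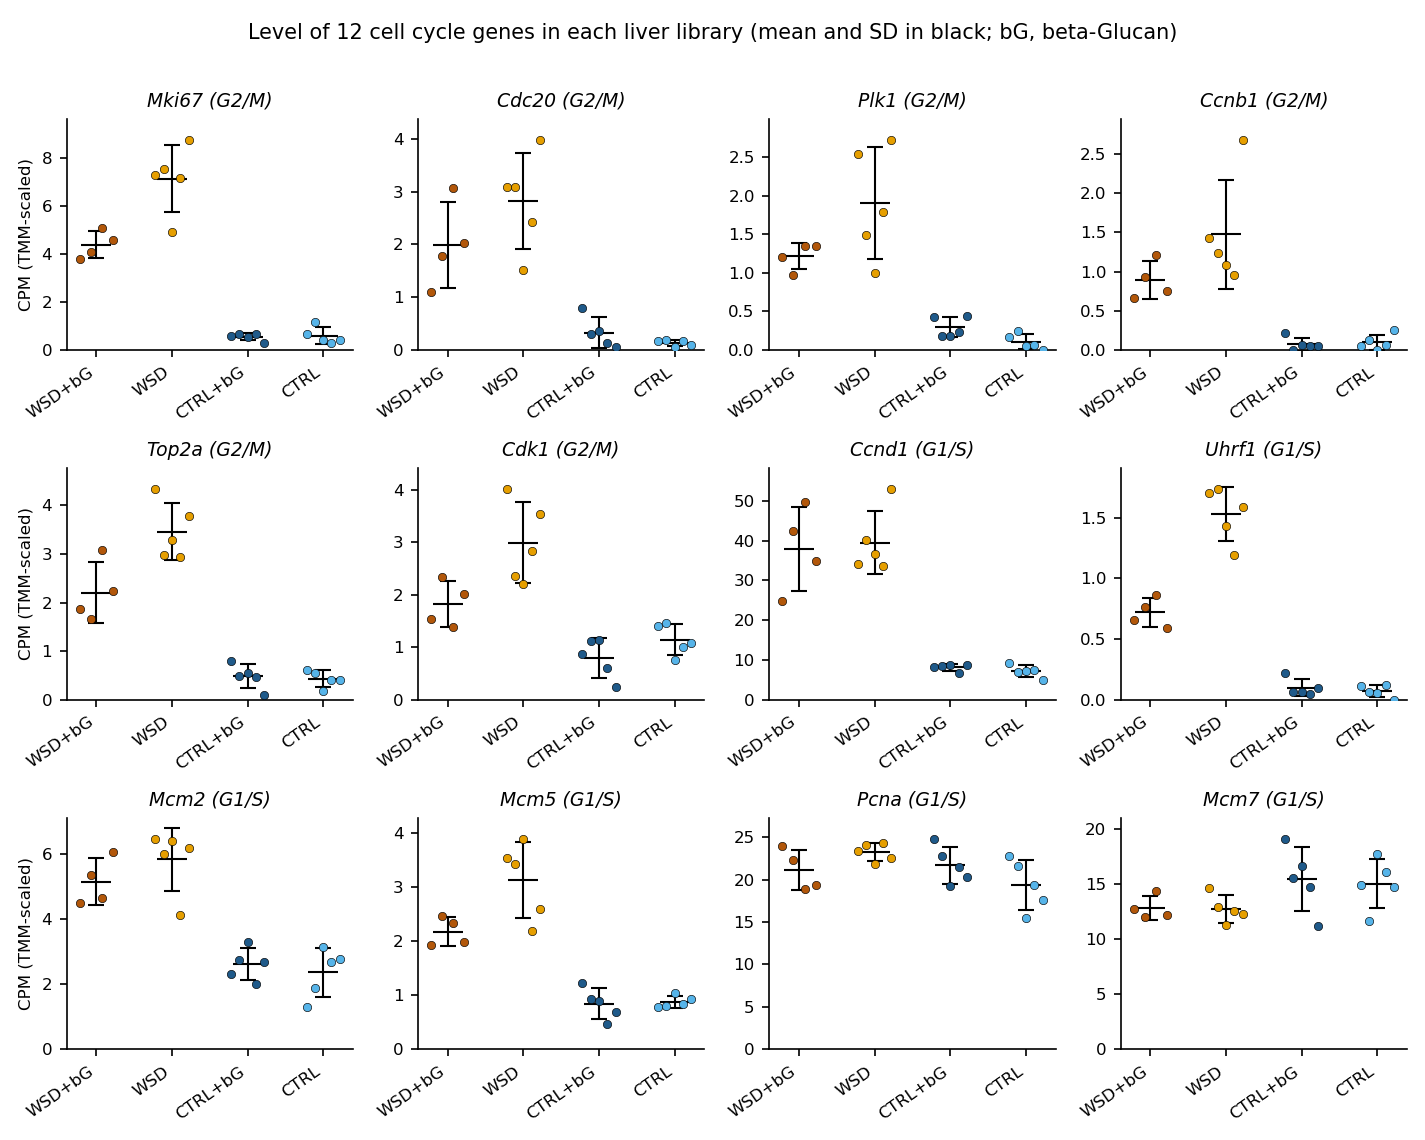
Level in CPM of 12 members in each library (points), with the mean and SD of each group in black; bG stands for beta-Glucan. For Mki67 the WSD libraries lie between 4.89 and 8.74 and the CTRL libraries between 0.296 and 1.16, while for Mcm7 the groups overlap.

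Of the G1/S members, Ccnd1 and Uhrf1 had the highest fold changes. Ccnd1, the cyclin of early G1, had 24.9, 42.5, 49.6 and 34.9 CPM in the WSD+beta-Glucan libraries, 34.1, 40.2, 36.7, 33.6 and 52.9 CPM in the WSD libraries, 8.3, 8.38, 8.65, 6.58 and 8.65 CPM in the CTRL+beta-Glucan libraries and 9.17, 6.82, 7.29, 7.51 and 4.94 CPM in the CTRL libraries. The WSD libraries were all above 33, and the fold change was 2.47 ± 0.18 (edgeR adjusted p = 3.94e-09). Ccne1, the cyclin of the G1/S step, had 0.659, 0.51, 0.649 and 0.547 CPM in the WSD+beta-Glucan libraries, 1.06, 0.578, 0.562, 0.504 and 0.569 CPM in the WSD libraries, 1.3, 0.559, 0.30, 0.0927 and 0.0989 CPM in the CTRL+beta-Glucan libraries and 0.169, 0.427, 0.525, 0.591 and 0.567 CPM in the CTRL libraries. The groups overlapped and Ccne1 was not called, at 0.51 ± 0.49 (edgeR adjusted p = 0.399).

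Both activating E2F members were called higher. E2f1 had 5.6, 4.88, 5.06 and 5.9 CPM in the WSD+beta-Glucan libraries, 4.01, 4.42, 5.19, 5.13 and 3.7 CPM in the WSD libraries, 2.45, 3.29, 2.94, 1.76 and 1.68 CPM in the CTRL+beta-Glucan libraries and 2.87, 2.74, 2.39, 2.84 and 1.91 CPM in the CTRL libraries, with every WSD library above every CTRL library and a fold change of 0.82 ± 0.18 (edgeR adjusted p = 0.000741). E2f2 had 1.54, 1.78, 1.82 and 0.926 CPM in the WSD+beta-Glucan libraries, 2.44, 2.89, 2.68, 2.33 and 2.07 CPM in the WSD libraries, 1.08, 0.621, 0.781, 0.881 and 0.297 CPM in the CTRL+beta-Glucan libraries and 0.619, 0.731, 0.641, 1.06 and 0.412 CPM in the CTRL libraries. Its groups did not overlap either, and the fold change was 1.84 ± 0.28 (edgeR adjusted p = 2.18e-05). Mybl2 had 0.274, 0.467, 0.433 and 0.421 CPM in the WSD+beta-Glucan libraries, 0.876, 0.33, 0.562, 0.32 and 0.569 CPM in the WSD libraries, 0.649, 0.559, 0.721, 0.464 and 0.593 CPM in the CTRL+beta-Glucan libraries and 0.225, 0.427, 0.816, 1.18 and 0.567 CPM in the CTRL libraries. CTRL spread more widely than WSD, and the fold change of −0.27 ± 0.36 was not called (edgeR adjusted p = 0.551) and turned positive with library totals as scaling (0.20), with a length offset (0.014) and without CTRL replicate 4 (0.059).

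Of the MCM genes, 5 of 6 were called higher in WSD: Mcm5 (1.83 ± 0.22), Mcm3 (1.45 ± 0.18), Mcm6 (1.39 ± 0.18), Mcm2 (1.30 ± 0.20) and Mcm4 (0.46 ± 0.19), with edgeR adjusted p of 1.24e-06, 2.38e-06, 2.41e-06, 2.11e-05 and 0.0452. Mcm2 had 4.5, 5.35, 4.63 and 6.06 CPM in the WSD+beta-Glucan libraries, 6.45, 5.99, 6.4, 4.12 and 6.18 CPM in the WSD libraries, 2.31, 2.73, 3.3, 1.99 and 2.67 CPM in the CTRL+beta-Glucan libraries and 1.29, 1.89, 3.15, 2.66 and 2.78 CPM in the CTRL libraries. All WSD libraries lay above all CTRL libraries, although WSD replicate 4 was lower than the other WSD libraries. Mcm7 had 12.7, 12.1, 14.4 and 12.2 CPM in the WSD+beta-Glucan libraries, 14.7, 13, 11.2, 12.6 and 12.3 CPM in the WSD libraries, 19.1, 15.6, 16.7, 14.8 and 11.2 CPM in the CTRL+beta-Glucan libraries and 15, 11.6, 17.8, 16.1 and 14.8 CPM in the CTRL libraries. The sixth subunit of the same ring was not called, at −0.24 ± 0.12 (edgeR adjusted p = 0.109), and its sign turned with library totals as scaling (0.23). The MCM2 to MCM7 proteins form 1 ring. The difference between Mcm7 and the other subunits was not tested.

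The genes of the fork and of nucleotide supply split. Uhrf1, which guides maintenance DNA methylation behind the fork, had 0.659, 0.764, 0.865 and 0.59 CPM in the WSD+beta-Glucan libraries, 1.71, 1.73, 1.43, 1.19 and 1.59 CPM in the WSD libraries, 0.216, 0.0621, 0.0601, 0.0464 and 0.0989 CPM in the CTRL+beta-Glucan libraries and 0.112, 0.0609, 0.0583, 0.118 and 0 CPM in the CTRL libraries. WSD was far above CTRL, where the 5 libraries held between 0 and 2 reads each, and the fold change was 4.36 ± 0.39 (edgeR adjusted p = 3.39e-08). Pcna, the sliding clamp, had 23.9, 22.4, 19 and 19.4 CPM in the WSD+beta-Glucan libraries, 23.4, 24.2, 21.8, 24.4 and 22.6 CPM in the WSD libraries, 24.8, 22.8, 19.2, 21.5 and 20.3 CPM in the CTRL+beta-Glucan libraries and 22.8, 21.6, 15.5, 19.3 and 17.6 CPM in the CTRL libraries. The groups overlapped, and the fold change of 0.27 ± 0.10 was called (edgeR adjusted p = 0.0317), but leaving out 1 of 5 libraries (WSD replicate 2 or 4, CTRL replicate 3, 4 or 5) took the adjusted p to between 0.0517 and 0.0988. Rrm2, the small subunit of ribonucleotide reductase, had 2.31, 3.02, 2.77 and 2.27 CPM in the WSD+beta-Glucan libraries, 3.87, 3.39, 2.94, 3.34 and 3.33 CPM in the WSD libraries, 2.89, 2.17, 1.92, 2.36 and 1.83 CPM in the CTRL+beta-Glucan libraries and 2.53, 3.11, 1.75, 1.66 and 3.3 CPM in the CTRL libraries. Its fold change of 0.45 ± 0.19 was just short of a call (edgeR adjusted p = 0.051), and DESeq2 and limma-voom called it, with adjusted p of 0.0284 and 0.0279. Tyms, thymidylate synthase, was at 0.11 ± 0.14 and not called (edgeR adjusted p = 0.502).

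Tk1, the thymidine kinase of the salvage pathway, had 14.8, 11.8, 9.78 and 13.3 CPM in the WSD+beta-Glucan libraries, 12.4, 11.8, 13.3, 13.5 and 9.51 CPM in the WSD libraries, 20.1, 28.4, 15.1, 20.2 and 15 CPM in the CTRL+beta-Glucan libraries and 16.6, 14, 13.8, 19.1 and 12.3 CPM in the CTRL libraries. The WSD and CTRL libraries overlapped, and the fold change of −0.32 ± 0.17 was not called (edgeR adjusted p = 0.107), turning to 0.13 with library totals as scaling. In WSD+beta-Glucan against CTRL+beta-Glucan, every library of the first group was below every library of the second, and Tk1 was called lower, at −0.67 ± 0.18 (edgeR adjusted p = 0.00623). That call was lost with library totals as scaling and with a length offset. With edgeR fitted to all 19 libraries after TMM scaling, no other member was called lower in any of the 5 comparisons.

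The mean log2 CPM of the 26 G2/M members was 0.38 ± 0.20 in WSD+beta-Glucan, 0.95 ± 0.27 in WSD, −1.37 ± 0.21 in CTRL+beta-Glucan and −1.30 ± 0.27 in CTRL (SD over libraries). For the 16 G1/S members it was 2.04 ± 0.07, 2.25 ± 0.10, 1.34 ± 0.22 and 1.29 ± 0.09 in the same groups. Both classes had their WSD libraries above all CTRL libraries. The sum over all 29 G2/M members, tested or not, was 36.5 ± 5.70, 56.5 ± 11.1, 10.04 ± 1.86 and 10.1 ± 2.08 CPM in WSD+beta-Glucan, WSD, CTRL+beta-Glucan and CTRL. These 29 genes together took 124 to 216 reads of a CTRL library and 938 to 1715 of a WSD library. The sum over all 17 G1/S members was 124 ± 7.47, 132 ± 6.53, 88.6 ± 9.49 and 79.9 ± 5.29 CPM in the same order of groups. The larger rise of the G2/M members is thus one on the log2 scale, from a lower level in CTRL.

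**Figure D4:**
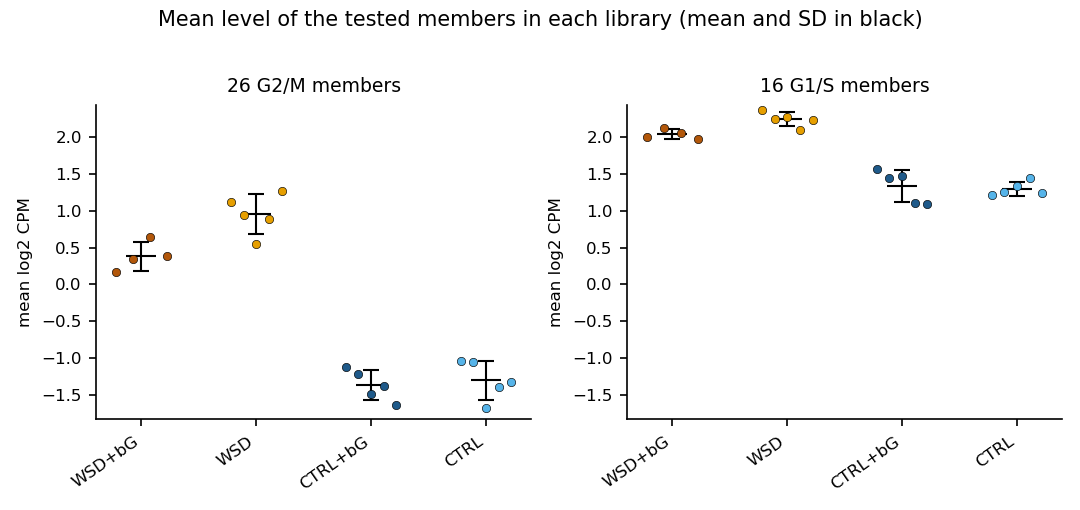
Mean log2 CPM of the 26 tested G2/M members and the 16 tested G1/S members in each library (points), with the mean and SD of each group in black; bG stands for beta-Glucan. The G2/M means are 0.38 in WSD+beta-Glucan, 0.95 in WSD, −1.37 in CTRL+beta-Glucan and −1.30 in CTRL.

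The WSD effect was also measured in livers of mice given beta-glucan. In WSD+beta-Glucan against CTRL+beta-Glucan, 33 of the 42 members were called higher and 1 lower, against 19.1% and 15.2% of all genes. All 24 G2/M calls and 9 of the G1/S calls were higher, with medians of 2.02 and 0.79. The highest fold changes were those of Ccnb1 (3.59 ± 0.59), Tpx2 (3.42 ± 0.51), Aurkb (3.41 ± 0.54), Cenpe (3.28 ± 0.44) and Cenpf (3.11 ± 0.52). In CTRL+beta-Glucan these genes held only 6, 10, 6, 6 and 9 reads in all, so their order rests on few reads. Mki67, with 48 reads there, was at 2.99 ± 0.28. The 33 members called higher here make up 94.3% of the 35 called in WSD against CTRL, and all of them were called there. Kif11 (0.41 ± 0.32, edgeR adjusted p = 0.338) and Pcna (−0.04 ± 0.11, edgeR adjusted p = 0.812) were called in WSD against CTRL but not here. The difference between both WSD effects was not called for either, with edgeR adjusted p of 0.342 and 0.367. These comparisons share no library.

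Beta-glucan under WSD gave no call among the members in the fit to all libraries. In WSD+beta-Glucan against WSD, edgeR then called 0 of 42 members, beside 12 genes (0.0883%) called higher and 41 (0.302%) called lower over the whole table. At an unadjusted p under 0.05, 16 members were lower and 0 higher, against 7.89% of all genes that were lower at this level. Of the 42, 35 had a negative log2 fold change, with a median of −0.51 beside 0.01 over all genes. The median was −0.66 over the G2/M members, of which 13 were lower at the unadjusted level, and −0.16 over the G1/S members, of which 3 were (E2f2, Mcm5 and Uhrf1). In 6 members, E2f2, Uhrf1, Ccna2, Birc5, Cenpe and Nusap1, every WSD+beta-Glucan library lay below every WSD library, against 4.83% of all genes.

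The smallest p among the members was that of Uhrf1, at −1.08 ± 0.30 (edgeR adjusted p = 0.0966), followed by Birc5 at −0.85 ± 0.25 (edgeR adjusted p = 0.124). Mki67 averaged 4.38 ± 0.564 CPM in WSD+beta-Glucan and 7.11 ± 1.40 CPM in WSD (SD, n = 4 and 5), a log2 fold change of −0.70 ± 0.23 (edgeR adjusted p = 0.155). WSD replicate 3, at 4.89 CPM, lay within the range of the WSD+beta-Glucan libraries. DESeq2 and limma-voom called 3 members lower (Uhrf1, Birc5 and Mki67), edgeR fitted to the compared groups alone called these and Cenpe, and edgeR with library totals as scaling called Uhrf1 and Birc5. The calls in WSD+beta-Glucan against WSD thus changed with the test, with the libraries fitted together and with the scaling. Ccnd1 averaged 37.98 ± 10.6 CPM in WSD+beta-Glucan and 39.5 ± 7.94 CPM in WSD, at −0.06 ± 0.18 with a 95% interval from −0.42 to 0.31. This comparison shares the WSD libraries with WSD against CTRL.

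Beta-glucan under CTRL gave no call among the members either. In CTRL+beta-Glucan against CTRL, 0 of 42 members were called, beside 1 gene (0.00736%) called higher over the whole table. At an unadjusted p under 0.05, 2 members were higher and 0 lower, beside 389 higher and 386 lower of all 13594 genes. The 2 were Plk1 at 1.46 ± 0.56 and Tk1 at 0.38 ± 0.16 (edgeR adjusted p = 0.851 and 0.854). Plk1 rested on 26 reads in CTRL+beta-Glucan and 9 in CTRL. The median log2 fold change was −0.08. DESeq2 and limma-voom called 0 members.

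The difference between both beta-glucan effects, under WSD minus under CTRL, was called for 0 of 42 members, beside 1 gene (0.00736%) called lower over the whole table. At an unadjusted p under 0.05, 7 members were lower and 0 higher, beside 927 lower and 938 higher of all 13594 genes. The 7 were Plk1 (−2.10 ± 0.66), Ccnb2 (−1.79 ± 0.58), Cdc20 (−1.62 ± 0.71), Birc5 (−1.40 ± 0.38), Ube2c (−1.25 ± 0.59), Kif11 (−0.998 ± 0.45) and Cdca3 (−0.71 ± 0.34), all of them G2/M members. The smallest edgeR adjusted p was 0.181, for Birc5. DESeq2 and limma-voom called 0 members.

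**Figure D5:**
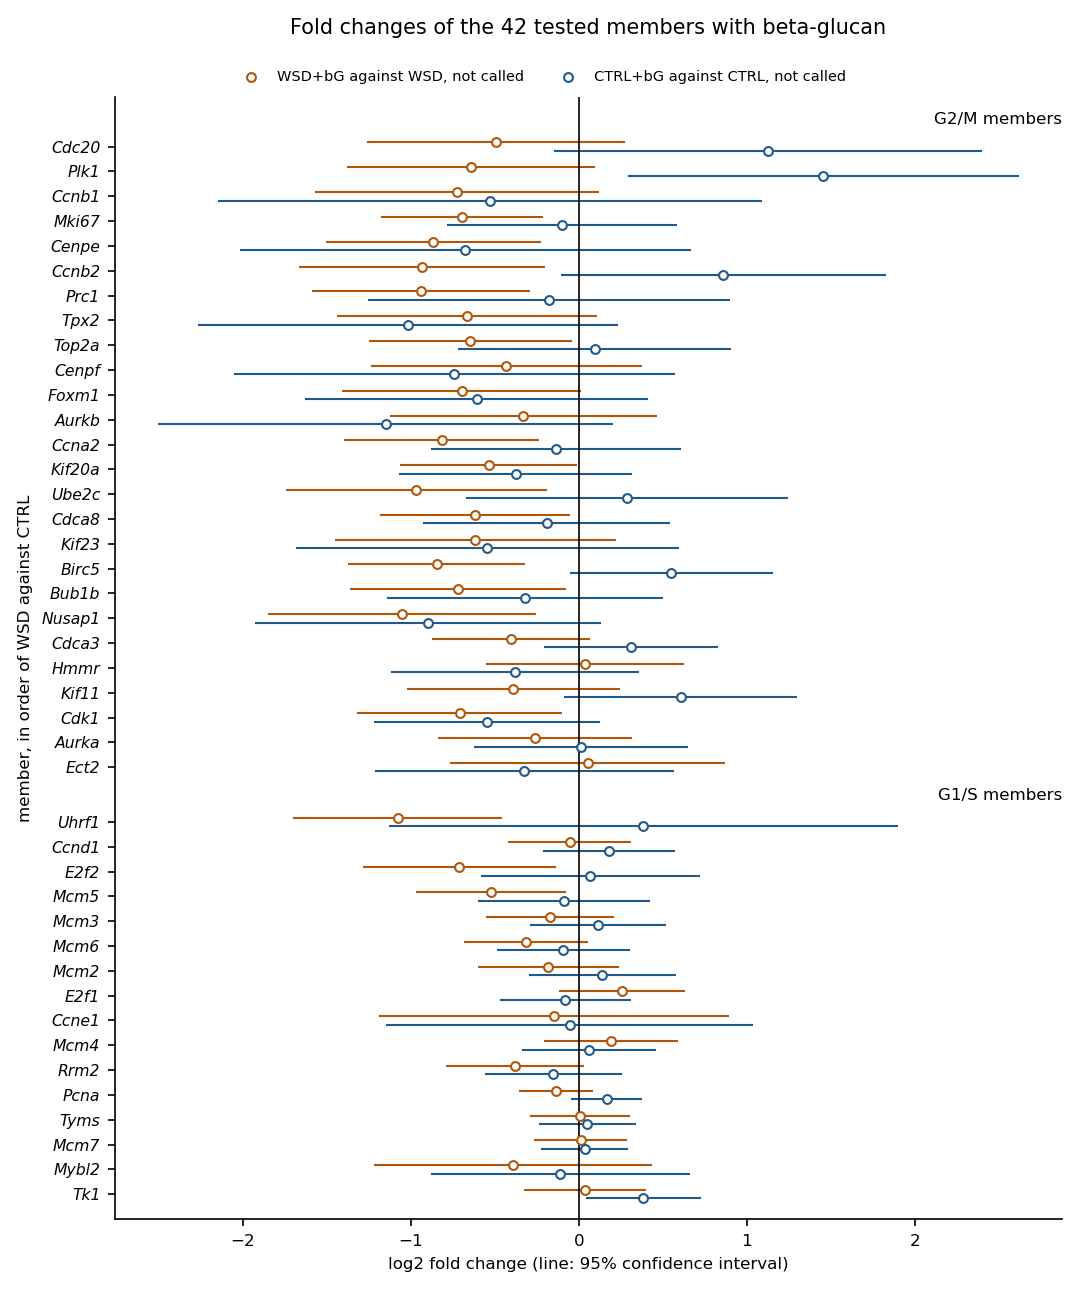
Log2 fold change with its 95% confidence interval of the 42 tested members in WSD+beta-Glucan against WSD and in CTRL+beta-Glucan against CTRL; all points are open because no member had an adjusted p under 0.05 (edgeR fitted to all libraries). Under WSD 35 of the 42 values are below 0, and under CTRL 23 are.

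Other genes of the same pathways, 124 in 9 lists of which 112 were tested, were called higher in 45 and lower in 22 cases in WSD against CTRL, beside 26% of all genes called higher and 27.1% lower. They were called higher in 31 and lower in 10 cases in WSD+beta-Glucan against CTRL+beta-Glucan, beside 19.1% and 15.2% of all genes. The edgeR test called 0 of them in both beta-glucan comparisons and in their difference. At an unadjusted p under 0.05, 8 of the 112 were higher and 8 lower in WSD+beta-Glucan against WSD, beside 1046 and 1072 of all 13594 genes. In CTRL+beta-Glucan against CTRL 1 was higher and 4 lower, beside 389 and 386 of all genes. In the difference 4 were higher and 6 lower, beside 938 and 927 of all genes. DESeq2 and limma-voom, applied to these lists after seeing the data, both called E2f4 (−0.37 and −0.34) and Incenp (−0.82 and −0.80) lower in WSD+beta-Glucan against WSD, and DESeq2 called Incenp lower in the difference (−1.21). With library totals as scaling, chosen as an alternative after seeing the data, 73 of the 112 were called higher in WSD against CTRL. Under this scaling 7874 of all 13594 genes were called higher and 617 lower, so higher calls were common over all genes. Only 2 of the 112 were then called lower (Mcm10 and Ccnd3), so that the lower calls given next rest on the scaling. The kinetochore and spindle list had the most calls, with 15 of 18 tested genes higher and 3 lower. Ckap2l (4.33) and Espl1, the protease separase (3.86), were the highest, and the kinetochore genes Spc25 (−0.78) and Zwint (−0.64) were lower. Of condensin and cohesin, 6 of 9 genes were higher, led by the condensin subunits Ncapg (4.21) and Ncapg2 (2.12), and 2 were lower, the cohesin subunits Smc1a (−0.29) and Rad21 (−0.27), whose signs turned with library totals (0.18 and 0.20).

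Of 16 tested licensing and firing genes, 4 were higher, among them the kinase Cdc7 (2.25) and the MCM loader Cdc6 (2.23), and 3 were lower, among them Mcm10 (−0.91) and Gins4 (−0.54). The share called higher is near that of all genes (26%) and the share called lower is below it (27.1%), and with library totals as scaling the counts were 9 higher and 1 lower. Of 22 polymerase and fork genes, 7 were higher, with Pole2 (1.33) and Fen1 (0.88) first and Prim1 (0.46) and Rrm1 (0.27) last, and 0 were lower. Of 14 RB, E2F and DREAM genes, 1 was higher, Rbl1 (2.05), which encodes the pocket protein p107, and 7 were lower, among them Rbl2 (−0.75), which encodes the pocket protein p130 of quiescent cells, E2f8 (−1.13) and Tfdp1 (−0.27). Among 7 other G1 genes Ccnd2 (1.38) and Myc (0.92) were higher, and Ccnd3 (−0.77) and Cdk2 (−0.41) lower, Cdk2 turning to 0.056 with library totals. The shares of these G1 genes called higher and lower, and of the polymerase and fork genes called higher, are near those of all genes (26% and 27.1%).

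Of the CDK inhibitors, which brake the cycle, 4 of 5 tested genes were higher in WSD against CTRL and 0 lower: Cdkn1c (1.29), Cdkn2c (1.01), Cdkn2d (0.48) and Cdkn1b (0.25). Over all genes, 26% were called higher and 27.1% lower in that comparison. Cdkn1a, which encodes p21, was at 0.39 and not called (edgeR adjusted p = 0.481). Of the same 5 genes, 1 was called higher (Cdkn2c, 0.87) and 0 lower in WSD+beta-Glucan against CTRL+beta-Glucan. The share called higher there is near that of all genes (19.1%), of which 15.2% were called lower. Their median log2 fold change was 0.07 in that comparison and 0.48 in WSD against CTRL. The difference between both WSD effects was called by edgeR for 0 of the 5, with Cdkn1b at an unadjusted p under 0.05. Of 11 tested checkpoint genes 5 were higher in WSD against CTRL, with the phosphatase Cdc25b (1.28) and the kinase Wee1 (1.18) first and Trp53, which encodes p53 (0.52), last, and 1 was lower, Brca2 (−0.51).

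In WSD+beta-Glucan against CTRL+beta-Glucan, the kinetochore and spindle list had 13 of 18 genes called higher and 1 lower, condensin and cohesin 5 of 9 higher, and the checkpoint list 5 of 11 higher, with 0 lower in both. Licensing and firing had 3 of 16 higher and 3 lower, and polymerases and fork factors 2 of 22 higher and 0 lower. The RB, E2F and DREAM list had 1 of 14 higher and 4 lower, and the other G1 genes 1 of 7 higher and 2 lower. The shares of all genes were 19.1% called higher and 15.2% called lower. No gene of the anaphase promoting complex list was called by edgeR in this comparison. At an unadjusted p under 0.05, 1 of its 10 genes was higher and 1 lower, beside 3228 and 2846 of all 13594 genes.

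Most markers of macrophages, T and NK cells, stellate cells and endothelium were called higher in WSD against CTRL, as the members were. Over all genes, 26% were called higher and 27.1% lower in that comparison. The summed level of 10 macrophage and monocyte markers was 447 to 525 CPM in WSD+beta-Glucan, 668 to 855 in WSD, 55.9 to 221 in CTRL+beta-Glucan and 63.5 to 172 in CTRL. All 10 were called higher in WSD against CTRL, and the sums of WSD+beta-Glucan and WSD libraries did not overlap, with 0 of 10 called by edgeR in WSD+beta-Glucan against WSD. For 8 T and NK cell markers the sum was 5.82 to 8.48, 5.11 to 14.01, 2.67 to 3.54 and 1.48 to 2.81 CPM in the same groups, and 6 of the 7 tested were called higher in WSD against CTRL. Stellate and fibroblast markers (6 genes) summed to 205 to 295, 252 to 436, 61.1 to 166 and 60.3 to 159 CPM, with 5 of 6 called higher. Endothelial markers (6 genes) summed to 101 to 150, 127 to 190, 71.7 to 115 and 43.8 to 141 CPM, with 4 of 6 higher.

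Hepatocyte markers (8 genes) went the other way, at 61873 to 92261 CPM in WSD+beta-Glucan, 48738 to 60068 in WSD, 113392 to 145342 in CTRL+beta-Glucan and 97535 to 132925 in CTRL, and 6 of 8 were called lower in WSD against CTRL. The library with the lowest sum of hepatocyte markers had 48738 CPM, so that the label of liver fits all libraries. B and plasma cell markers (5 genes) lay between 3.03 and 7.09 CPM in all 19 libraries, with 1 of 5 higher, and neutrophil markers (5 genes, 3 not tested) between 0.651 and 11.1 CPM, with Camp at 0 reads in CTRL. Cholangiocyte markers (5 genes) had 2 of 5 called higher in WSD against CTRL, beside 26% of all genes. Erythroid markers (5 genes, 4 tested) had 1 called lower, beside 27.1% of all genes. The part of these cells in the result for the members was not tested.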

How the data were processed

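Liver RNA, extracted with a PureLink kit, was made into 19 TruSeq stranded mRNA libraries, per the labels' protocols. Reads were quantified by the authors with Salmon 1.10.1 on build GRCm39, per the submitters' processing notes, which also name DESeq2 1.38.3 without its role. The deposited estimated counts per transcript are not scaled between libraries. The deposited TPM values and effective lengths entered only the length offset and the mean TPM per gene. The transcript set behind the quantification is not given in the sources used here.

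Each quantification listed 116546 transcripts. Of these, 115977 were matched by identifier to GENCODE M21 (an annotation of build GRCm38), the other 569 were left out, and the estimated counts were summed to 35498 genes and rounded. Groups follow the treatment labels; replicate numbers follow the order of deposition. No count floor was set beyond the filter named next, and some values lie near 0 reads. In CTRL, Uhrf1, Ccnb1, Plk1 and Cdc20 held 6, 9, 9 and 12 reads in all. Their fold changes in WSD against CTRL rest on these few reads. edgeR 4.0.16 in R 4.3.3 fitted 1 mean per group to all 19 libraries (TMM, filterByExpr, robust quasi-likelihood), and p-values were adjusted over 13594 genes within each of 5 contrasts. The SE is the fold change over the t value that belongs to its p-value. Log2 CPM used a prior count of 2. The scripts were tested on simulated data.

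The members, classes and gene lists were chosen with earlier results of these data known. Values in every library are given for 19 members: Mki67, Top2a, Ccnb1, Cdk1, Ccnd1, Ccne1, E2f1, Mcm2, Pcna, Rrm2, every member with a fold change against the majority, and the 3 highest and 3 lowest members of each class. From each pathway list, the 2 highest and 2 lowest genes among those called in WSD against CTRL are named; Cdkn1a was added after its value was seen. The 28 alternatives were other scalings, no filter, DESeq2 1.42.0, limma-voom (limma 3.58.1), the compared groups alone, a length offset, the 3 libraries with title numbers 37, 39 and 40 left out or as a covariate, and each library left out. Promoter windows came from RefSeq (GRCm38.p6), and motifs were matched by exact letters.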

Additional observations from a re-analysis of the deposited data

Results flagged for a closer look

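In 6 of 76 groups of values from the 19 members described per library, 1 library lay far from the others of its group by Dixon's criterion. Chance alone gives about 1 in 20 such groups. Aurka had 1.51 CPM in WSD+beta-Glucan replicate 3, the highest of its group, with 1.04 CPM in the next library (35 reads). Ccnb1 had 2.68 CPM in WSD replicate 5, the highest, with 1.43 CPM in the next library (66 reads). Ccne1 had 1.06 CPM in WSD replicate 1, the highest, with 0.578 CPM in the next (23 reads). Mcm2 had 4.12 CPM in WSD replicate 4, the lowest, with 5.99 CPM in the next (90 reads). Ccnb1 had 0.216 CPM in CTRL+beta-Glucan replicate 1, the highest, with 0.0601 CPM in the next, but this library held 3 reads of the gene. Ccnd1 had 6.58 CPM in CTRL+beta-Glucan replicate 4, the lowest, with 8.30 CPM in the next (142 reads).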

How the results depend on the processing

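Over 28 alternatives, the members called in WSD against CTRL numbered 33 to 38 (33 to 36 with 1 library left out), and in WSD+beta-Glucan against CTRL+beta-Glucan 31 to 36 (32 to 35). In WSD+beta-Glucan against WSD the 0 calls became 2 with library totals, 3 with DESeq2, 3 with limma-voom and 4 with the compared groups alone, and stayed 0 with any 1 library left out. The calls stayed 0 in CTRL+beta-Glucan against CTRL and in the difference, for which the compared groups alone were not run. The G1/S median in WSD against CTRL was 1.13 with library totals, 0.83 with no filter and 0.46 with the cyclin, E2F and Mybl2 members taken out of the class (0.66 to 0.74 with 1 library left out), and the G2/M median was 2.999 with library totals (2.41 to 2.63 with 1 library left out). With library totals, which moved the median of all genes from −0.04 to 0.43, Mybl2 (0.20), Tk1 (0.13) and Mcm7 (0.23) changed sign, as did Mybl2 with the length offset (0.014) and without CTRL replicate 4 (0.059; −0.51 to 0.059 with 1 library left out). The cause was not tested. Of 532 values of single members, 510 kept direction and side of the threshold, 5 lost the call (all Pcna, each with 1 library left out), 12 gained one (9 of Rrm2, 2 of Ect2 and 1 of Mcm7) and 5 changed sign. Scaling by library totals was chosen after seeing the data. No paired analysis was possible because the replicate numbers were given in order of deposition. Depth limits the members with fewest reads, 4 of which could not be tested.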
